A study of Mus musculus with 8 samples.

Results

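The genes described here are 43 named mouse genes of the interferon response and of class I antigen presentation, followed in the hearts of mice that overexpress FASTKD1 in the heart and in those of their non-transgenic counterparts. The rule that lists them names symbols and no measured value, but the list was chosen with earlier results of these data known. Shares over the list are therefore descriptions and carry no test. Of the 43 genes, 42 were present among the 13227 genes counted in every heart. The remaining gene, Zbp1, was not analysed here. By role the 42 comprised 3 sensors of foreign nucleic acid, 4 transcription factors, 12 antiviral effectors, 6 genes of ISG15, ubiquitin and ADP-ribose transfer, 6 interferon-induced GTPases, 9 genes of antigen processing and presentation and 2 others.

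Hearts of 8 adult mice of the inbred strain FVB/N, all labelled male and 3 months old, had been studied by RNA sequencing. Transgenic hearts A, B, C and E carried a FASTKD1 transgene that the series title calls cardiac-specific, and the non-transgenic hearts, lettered A, B, D and E, did not carry it. The promoter that drives the transgene and the number of founder lines are not given in the sources used here, and the labels name no treatment of either group. FASTKD1 is a mitochondrial protein of a family that handles mitochondrial RNA.

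Interferons are secreted proteins that bind receptors on neighbouring cells and act through Janus kinases on STAT and IRF transcription factors. Type I interferons lead to a complex with STAT2 and IRF9 that binds the interferon-stimulated response element, while interferon gamma acts through the gamma-activated site. Their targets include proteins that block viral replication, GTPases that attack vacuoles of intracellular microbes, and the immunoproteasome, peptide transporter and MHC class I proteins that show peptides on the cell surface. In the heart, non-muscle cells such as endothelial cells and resident macrophages express MHC genes strongly.

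The counts summed to between 44584359 and 55769859 per transgenic heart and to between 45802079 and 50830215 per non-transgenic heart. Values are given as CPM, a gene's share of the library's counts on a common scale, after scaling by the trimmed mean of M values. Fastkd1, the targeted gene, had between 8845 and 11516 CPM in transgenic hearts and between 26.3 and 192 CPM in non-transgenic hearts, with a log2 fold change of 7.14 (SE 0.75, edgeR adjusted p = 0.000684). The highest non-transgenic value was that of heart D, which also stood apart from its labelled sex, since the summed CPM of 4 Y-linked genes was 0 in it and between 245 and 269 in the other hearts. The summed CPM of 5 atrial genes was 3001 in transgenic heart A and 581 in non-transgenic heart D, against 23.7 to 249 in the other hearts. Without these 2 hearts, 0 of the 42 interferon and antigen presentation genes were higher and 0 lower (1.29% and 0.802% of all genes), and their median log2 fold change was -0.35.

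Promoters of the genes were examined first, because the binding motifs are what the group is known for. Of the 42 genes, 35 had an entry in RefSeq's table of promoters on build GRCm38.p6, which holds 300 bases for each start, 250 before it and 50 after. The core of the interferon-stimulated response element, searched on both strands as GAAA and GAAA with any 2 bases between them, was present for 14 of the 35 genes, or 40.0%, against 3.99% of all 27025 genes in the table. A longer core with a C after the second GAAA, which holds the shorter one, was present for 11 of 35, or 31.4%, against 0.944% of all genes. The core of the gamma-activated site, TTCNNNGAA, reads the same on both strands in its fixed bases and was present for 9 of 35, or 25.7%, against 9.55%, and 3 genes held both kinds of core. By role, the response element core was found for 5 of 5 GTPases with an entry but for 1 of 8 antigen presentation genes, which was B2m. A match is a description of the letters in this window, and its absence says only that these letters are not there.

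The stretches of 70 bases below were chosen to show a classic type I target (Isg15), 4 of the interferon-induced GTPases, the role in which single hearts stood out most (Gbp2, Gbp7, Igtp and Irgm1), the one antigen presentation gene with a response element core (B2m) and 2 genes that hold a gamma-activated site core and no response element core (Irf1 and Psmb8). Capitals mark the response element cores, on either strand, and the TTCNNNGAA cores, and coordinates are on GRCm38.p6.
Isg15 (chr4:156200851-156200920, minus strand): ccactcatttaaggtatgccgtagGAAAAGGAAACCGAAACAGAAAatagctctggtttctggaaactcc
Gbp2 (chr3:142620574-142620643, plus strand): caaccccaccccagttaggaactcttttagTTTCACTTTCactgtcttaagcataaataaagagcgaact
Gbp7 (chr3:142530226-142530295, plus strand): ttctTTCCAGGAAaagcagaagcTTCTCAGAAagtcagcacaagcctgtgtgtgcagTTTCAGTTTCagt
Igtp (chr11:58199486-58199555, plus strand): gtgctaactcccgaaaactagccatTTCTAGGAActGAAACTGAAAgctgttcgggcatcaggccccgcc
Irgm1 (chr11:48871408-48871477, minus strand): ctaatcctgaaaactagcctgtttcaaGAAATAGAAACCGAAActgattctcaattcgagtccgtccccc
B2m (chr2:122147518-122147587, plus strand): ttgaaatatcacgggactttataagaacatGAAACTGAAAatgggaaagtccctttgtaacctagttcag
Irf1 (chr11:53769893-53769962, plus strand): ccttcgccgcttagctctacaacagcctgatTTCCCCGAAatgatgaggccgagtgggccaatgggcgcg
Psmb8 (chr17:34198067-34198136, plus strand): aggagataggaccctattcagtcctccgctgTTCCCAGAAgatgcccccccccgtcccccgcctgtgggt
Isg15 holds 3 overlapping response element cores in a row, and Irgm1 2 that overlap. Gbp7 and Igtp hold both kinds of core, while Gbp2 and B2m hold a single response element core each.

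Across the 42 genes, transgenic hearts lay mostly below non-transgenic hearts, but no single gene passed the test. In edgeR's quasi-likelihood test with Benjamini-Hochberg adjustment over 13226 genes at a threshold of 0.05, 0 of the 42 were higher and 0 were lower in transgenic hearts. Over all tested genes 1.25% passed, of which 133, or 1.01% of all, were higher and 32, or 0.242%, were lower. At an unadjusted p under 0.05 there were 2 of the 42, Usp18 and B2m, both with a log2 fold change below 0, against 10.7% of all genes in either direction. DESeq2 called 0 of the 42 as well, against 1.89% of all genes higher and 1.2% lower, and 7 had an unadjusted p under 0.05, against 11.9% of all genes. Limma also called 0, against 1.02% of all genes higher and 0.242% lower, and 4 had an unadjusted p under 0.05, against 10.4% of all genes. The smallest edgeR adjusted p among the 42 was 0.350.

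The log2 fold change, transgenic over non-transgenic, was below 0 for 41 of the 42 genes, against 48.8% of all tested genes, the exception being Adar. Its median was -0.32 over the 42 and 0.01 over all genes. Because the list was chosen with earlier results known, this contrast carries no test. With scaling by library totals only, 38 of the 42 were below 0, Stat2, Trim25 and Psmb10 joining Adar above it, with a median of -0.24 against 0.08 over all genes. The groups overlapped for every one of the 42, whereas every transgenic heart lay below every non-transgenic heart for 2.8% of all genes and above every one for 4.58%. In whole hearts, fewer cells of a type and less RNA per cell cannot be told apart.

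**Figure D1:**
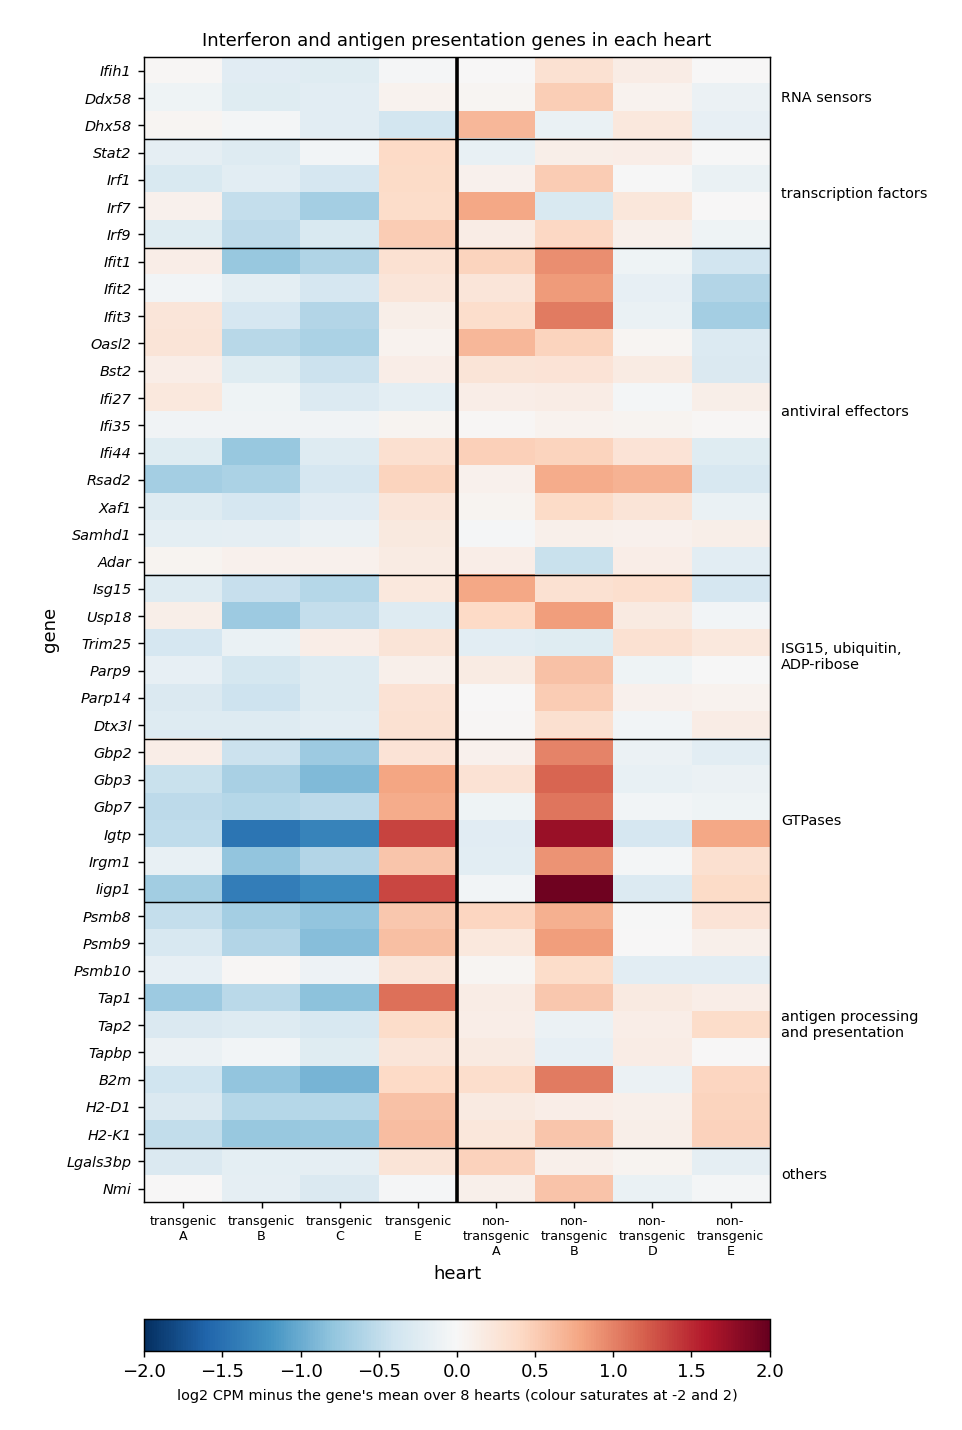
Each row is 1 of the 42 genes, ordered by role, and each column 1 heart, transgenic hearts on the left; colour gives log2 CPM minus the gene's mean over the 8 hearts. Transgenic hearts A, B and C are mostly below the mean, while transgenic E and non-transgenic B are above it for most genes, with the GTPases standing out.

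The mean log2 CPM over the 42 genes was 3.62, 3.38 and 3.37 in transgenic hearts A, B and C and 4.15 in transgenic heart E, against 3.99, 4.31, 3.86 and 3.80 in non-transgenic A, B, D and E. Transgenic hearts A, B and C were thus below every non-transgenic heart, and transgenic E was above 3 of the 4. Transgenic heart C had the lowest value of all 8 hearts for 18 genes, transgenic B for 14 and transgenic A for 5, while non-transgenic E had it for 3 and transgenic E and non-transgenic B for 1 each.

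A single heart of each group held most of its highest values. Transgenic heart E was the highest transgenic heart for 35 of the 42 genes, against 24.9% of all genes, and non-transgenic heart B the highest non-transgenic heart for 29 of the 42, against 36.2%. Both held at once for 24 of the 42, against 5.72% of all genes. Transgenic E reached at least 1.5 times the mean of the other transgenic hearts for 20 of the 42 (1.89% of all genes), and non-transgenic B at least 1.5 times that of the other non-transgenic hearts for 12 (4.48%). The median of this ratio was 1.49 for transgenic E and 1.29 for non-transgenic B over the 42 genes, against 0.997 and 0.995 over all genes. As the genes were chosen with earlier results known, these shares and ratios are descriptions.

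**Figure D2:**
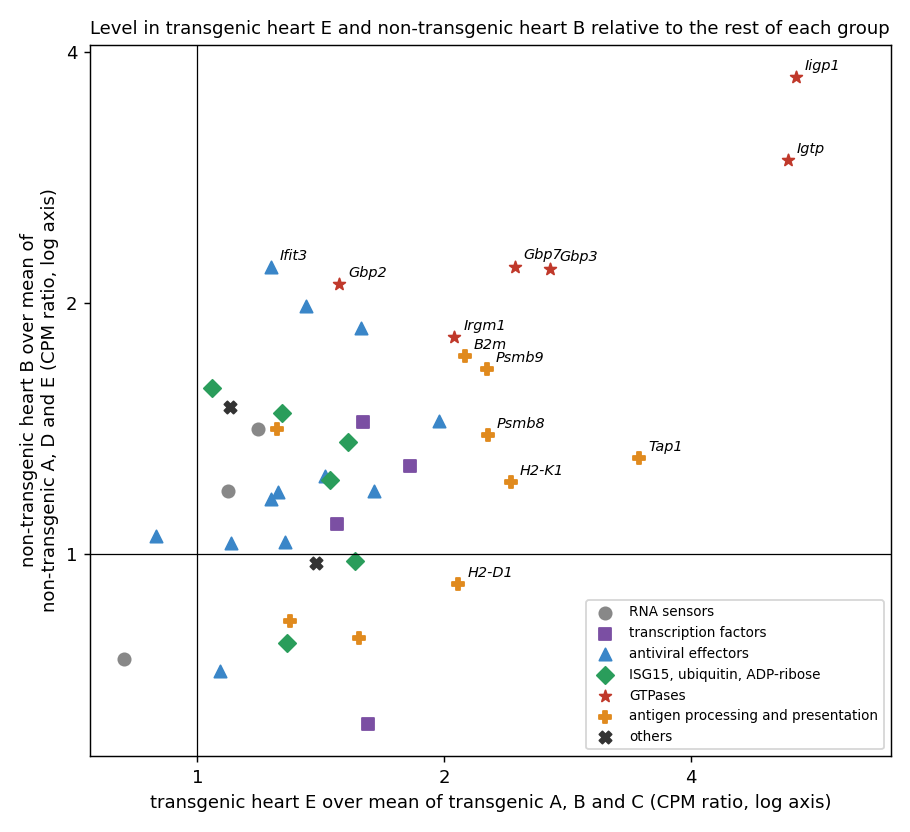
Each point is 1 of the 42 genes, coloured by role; the horizontal axis gives CPM in transgenic heart E over the mean of the other transgenic hearts and the vertical axis CPM in non-transgenic heart B over the mean of the other non-transgenic hearts, both on log axes. Iigp1 lies farthest out, at 5.37 and 3.73, with Igtp next at 5.25 and 2.96, while Tap1 lies at 3.46 and 1.30 and H2-D1 at 2.08 and 0.920.

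Transgenic hearts A, B and C all lay below every non-transgenic heart for 21 of the 42 genes, against 4.16% of all genes. These 21 included 7 of the 9 antigen presentation genes and 4 of the 6 GTPases but 0 of the 3 sensors. Transgenic E lay inside or above the non-transgenic range for 38 of the 42, a count without a share over all genes. It did so too for 15 of 19 interferon signalling genes and 15 of 18 nucleic acid sensing genes, so that count does not set the 42 apart. Choosing which heart to leave aside was done with the values known, so these counts describe the libraries and carry no test.

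The 3 sensors are RNA helicases of the cytoplasm, namely Ddx58 (RIG-I), Ifih1 (MDA5) and Dhx58 (LGP2), and the ratio between their highest and lowest heart ran from 1.47 to 2.04. Ifih1 had 7.11, 6.02, 5.90 and 6.90 CPM in transgenic A, B, C and E, against 7.07, 8.65, 7.73 and 7.04 CPM in non-transgenic A, B, D and E. Only transgenic A reached the non-transgenic range, and the log2 fold change came to -0.23 (SE 0.12, edgeR adjusted p = 0.524). Ddx58 averaged 14.0 ± 1.41 CPM in transgenic hearts and 16.6 ± 3.21 CPM in non-transgenic hearts (n = 4 each, SD), a log2 fold change of -0.25 (SE 0.14, edgeR adjusted p = 0.599). Dhx58, the least abundant of the 42 per length and with as few as 37 counts in a heart, averaged 0.948 ± 0.117 and 1.19 ± 0.337 CPM in transgenic and non-transgenic hearts (n = 4 each, SD), with a log2 fold change of -0.32 (SE 0.24, edgeR adjusted p = 0.718). In Dhx58 transgenic heart E was the lowest of all 8 hearts, unlike in most of the other genes.

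Of the 4 transcription factors, Stat2 and Irf9 belong to the type I complex, Irf7 drives the second wave of type I interferon, and Irf1 is an early target of interferon gamma. Irf1 had 20.2, 21.6, 19.6 and 32.6 CPM in transgenic A, B, C and E, against 26.5, 35.4, 24.6 and 22.7 CPM in non-transgenic A, B, D and E. Its 3 lower transgenic values lay below all 4 non-transgenic values and the fourth lay inside their range, and the log2 fold change came to -0.21 (SE 0.19, edgeR adjusted p = 0.771). Irf9 averaged 12.8 ± 4.43 CPM in transgenic hearts and 15.2 ± 2.17 CPM in non-transgenic hearts (n = 4 each, SD), with transgenic E the highest of all 8 at 19.4 CPM and a log2 fold change of -0.24 (SE 0.21, edgeR adjusted p = 0.770). Irf7 had its highest value, 6.096 CPM, in non-transgenic heart A and its lowest, 2.23 CPM, in transgenic heart C, for a log2 fold change of -0.35 (SE 0.28, edgeR adjusted p = 0.748). Stat2 differed little between groups, at 12.0 ± 2.66 CPM in transgenic hearts and 12.2 ± 1.08 CPM in non-transgenic hearts (n = 4 each, SD), and its log2 fold change of -0.02 had a 95% interval of -0.36 to 0.31.

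The 12 antiviral effectors act at separate steps of viral growth. Log2 fold changes ran from -0.58 for Rsad2 to 0.18 for Adar, with a median of -0.26, and 11 of the 12 were below 0. Rsad2 (viperin), an enzyme that makes a chain-terminating nucleotide, had 3.95, 4.08, 5.02 and 8.56 CPM in transgenic A, B, C and E, against 6.66, 10.5, 10.2 and 5.06 CPM in non-transgenic A, B, D and E. Transgenic E lay among the non-transgenic values, non-transgenic E lay among the transgenic values, and the log2 fold change came to -0.58 (SE 0.30, edgeR adjusted p = 0.543). Ifi44 averaged 1.99 ± 0.610 CPM in transgenic hearts and 2.71 ± 0.565 CPM in non-transgenic hearts (n = 4 each, SD; log2 fold change -0.44, SE 0.25, edgeR adjusted p = 0.598). Xaf1, which binds the apoptosis inhibitor XIAP, averaged 5.86 ± 1.16 and 7.095 ± 1.09 CPM in transgenic and non-transgenic hearts (n = 4 each, SD; log2 fold change -0.28, SE 0.16, edgeR adjusted p = 0.625).

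The 3 Ifit genes, whose proteins bind viral RNA, were all highest in non-transgenic heart B and spread widely. Ifit2 had 17.2, 15.5, 14.1 and 21.2 CPM in transgenic A, B, C and E, against 21.0, 32.3, 15.9 and 11.9 CPM in non-transgenic A, B, D and E. Non-transgenic hearts thus held both its highest and its lowest value, and its log2 fold change was -0.25 (SE 0.27). The log2 fold change of Ifit1 was -0.47 (SE 0.32) and that of Ifit3 -0.38 (SE 0.34), and reads of Ifit3 may be shared with its near copy Ifit3b. Oasl2, related to the 2′-5′ oligoadenylate synthetases, had a log2 fold change of -0.42 (SE 0.25), and Bst2 (tetherin), which holds budding virions at the cell surface, one of -0.20 (SE 0.17).

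Ifi35 lay between 9.06 and 9.98 CPM in transgenic hearts and between 9.68 and 10.1 CPM in non-transgenic hearts, the narrowest spread of the 42, with 1.11-fold between the highest and lowest heart. Samhd1, which depletes deoxynucleotides, averaged 28.1 ± 3.73 CPM in transgenic hearts and 30.9 ± 1.42 CPM in non-transgenic hearts (n = 4 each, SD), and Ifi27 averaged 16.4 ± 2.55 and 18.4 ± 0.992 CPM in the same groups. Adar, the RNA-editing deaminase that keeps cellular double-stranded RNA from MDA5, had 13.0, 13.2, 13.2 and 14.0 CPM in transgenic A, B, C and E, against 13.6, 9.17, 13.6 and 10.8 CPM in non-transgenic A, B, D and E. It was the only one of the 42 with a log2 fold change above 0, at 0.18 (SE 0.13, edgeR adjusted p = 0.726), and non-transgenic B, high in most other genes, was the lowest heart for it. Its exons overlap those of Chrnb2 over 1365 bases in the annotation, and the strand setting of the counting is not given in the sources used here.

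Isg15 is a ubiquitin-like protein that is attached to other proteins, Usp18 removes it and also blocks the type I receptor, and Trim25 is a ubiquitin ligase linked to RIG-I signalling. Usp18 had 1.68, 0.940, 1.12 and 1.30 CPM in transgenic A, B, C and E, against 2.04, 2.79, 1.76 and 1.504 CPM in non-transgenic A, B, D and E. Transgenic A, at 1.68 CPM, was the one transgenic value above the lowest non-transgenic value. With a log2 fold change of -0.68 (SE 0.25, 95% interval -1.24 to -0.12), Usp18 had the smallest p of the 42, at 0.0216 before and 0.350 after adjustment in edgeR. Isg15 had 1.998, 1.74, 1.61 and 2.77 CPM in transgenic A, B, C and E, against 4.102, 2.94, 3.02 and 1.90 CPM in non-transgenic A, B, D and E. Here non-transgenic E lay among the transgenic values, and the log2 fold change came to -0.56 (SE 0.26, edgeR adjusted p = 0.478).

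Parp9, Dtx3l and Parp14 lie close together on chromosome 16. Parp9 and Dtx3l form an ADP-ribosylating ubiquitin ligase, and Parp14 is a mono-ADP-ribosyltransferase. Parp9 averaged 20.5 ± 2.78 CPM in transgenic hearts and 26.0 ± 5.77 CPM in non-transgenic hearts (n = 4 each, SD; log2 fold change -0.34, SE 0.16, edgeR adjusted p = 0.483). Parp14 had a log2 fold change of -0.32 (SE 0.17) and Dtx3l one of -0.20 (SE 0.15), while the exons of Parp9 and Dtx3l overlap over 458 bases. Trim25 averaged 21.0 ± 3.80 CPM in transgenic hearts and 21.5 ± 4.14 CPM in non-transgenic hearts (n = 4 each, SD), with a log2 fold change of -0.04 and a 95% interval of -0.41 to 0.33.

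The 6 GTPases comprised 3 guanylate-binding proteins (Gbp2, Gbp3 and Gbp7) and 3 immunity-related GTPases (Igtp, Irgm1 and Iigp1). Some members of these families assemble in mice on the vacuoles of intracellular microbes. The 6 spread widely between hearts, from 3.11-fold between the highest and the lowest heart for Gbp7 to 10.04-fold for Iigp1. For all 6, transgenic E was the highest transgenic heart and non-transgenic B the highest of all 8. The median ratio of transgenic E to the mean of the other transgenic hearts was 2.56, and that of non-transgenic B to the mean of the other non-transgenic hearts 2.20.

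Iigp1 had 26.2, 16.3, 17.8 and 108 CPM in transgenic A, B, C and E, against 40.8, 164, 35.4 and 55.6 CPM in non-transgenic A, B, D and E. Igtp had 15.1, 7.78, 8.46 and 54.7 CPM in the same transgenic hearts, against 18.2, 70.6, 17.0 and 36.4 CPM in the non-transgenic hearts. In both genes the 3 lower transgenic values lay below every non-transgenic value, while transgenic E exceeded all but non-transgenic B. Gbp7 had 15.2, 14.8, 15.2 and 36.7 CPM in transgenic A, B, C and E, against 20.6, 45.9, 21.0 and 20.6 CPM in non-transgenic A, B, D and E. Its other 3 hearts in each group agreed closely, so that each group held 3 like values and 1 far above them. The exons of Igtp overlap those of the neighbouring Irgm2 over 162 bases.

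Because the spread within groups was wide, the differences between them were poorly bounded. Iigp1 had a log2 fold change of -0.81 with a 95% interval of -2.32 to 0.69 (edgeR adjusted p = 0.757), and Igtp one of -0.72 with an interval of -2.20 to 0.75 (edgeR adjusted p = 0.786). The 3 GTPases with the smallest p were Irgm1 (log2 fold change -0.45, SE 0.31, edgeR adjusted p = 0.699), Gbp2 (-0.41, SE 0.30, edgeR adjusted p = 0.714) and Gbp3 (-0.54, SE 0.40, edgeR adjusted p = 0.722). Without non-transgenic heart B, the log2 fold change of Iigp1 was -0.06 and that of Gbp7 -0.02. Without transgenic heart E, they were -1.89 (edgeR adjusted p = 0.238) and -0.86 (edgeR adjusted p = 0.404). The sign stayed negative, but the values without non-transgenic B were too small to give a direction. The size turned on these 2 hearts.

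**Figure D3:**
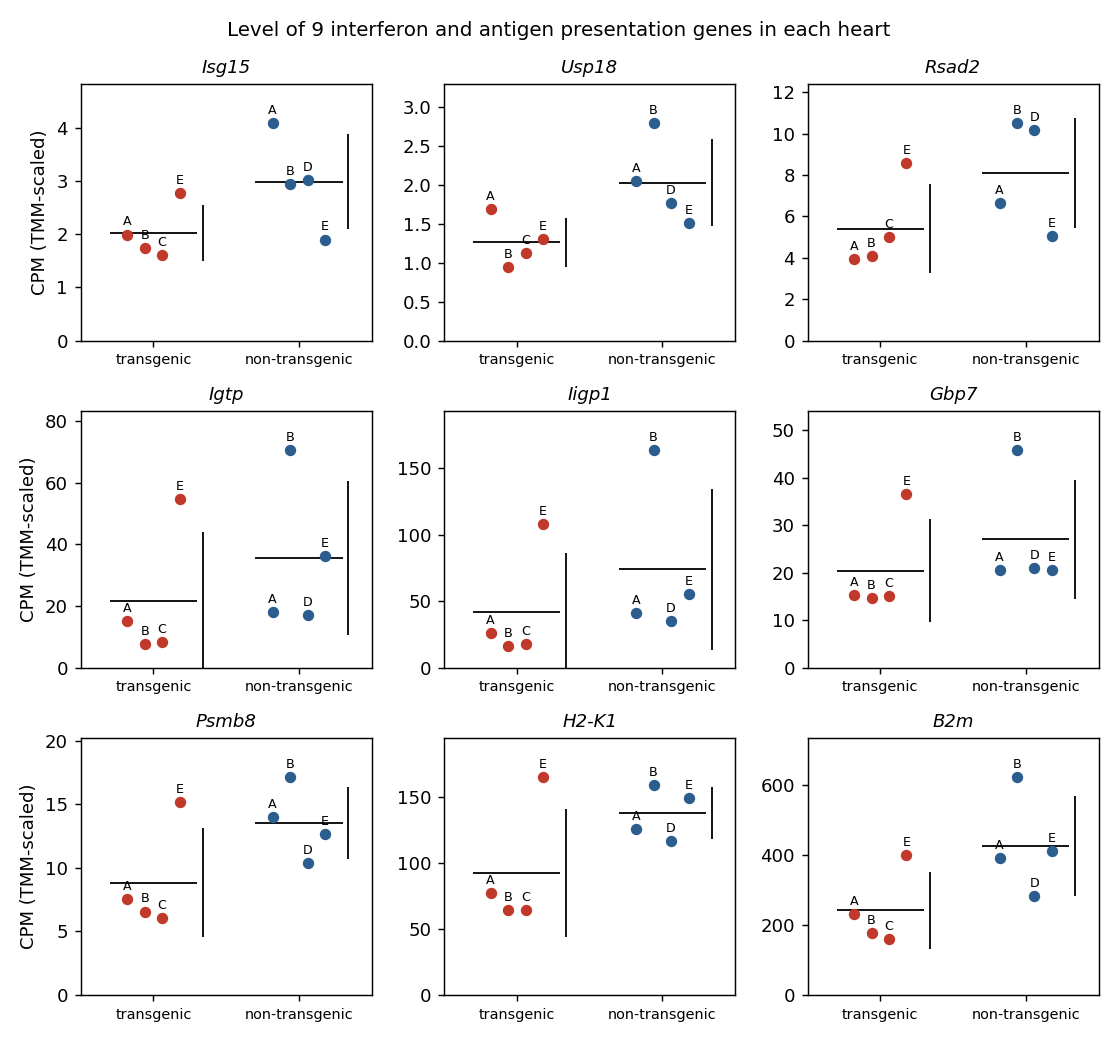
CPM of 9 of the genes in each heart, transgenic hearts left of non-transgenic hearts in every panel, each point 1 heart with its letter and each bar the group mean with its SD (n = 4 each), cut at 0 where the SD exceeds the mean. Iigp1 and Igtp show 1 high heart in each group, whereas the 8 values of Usp18 lie between 0.940 and 2.79 CPM.

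The 9 antigen presentation genes act in sequence. Psmb8, Psmb9 and Psmb10 are the catalytic subunits of the immunoproteasome, Tap1 and Tap2 form the peptide transporter of the endoplasmic reticulum, Tapbp (tapasin) bridges it to class I molecules, and H2-D1 and H2-K1 are class I heavy chains paired with B2m. Psmb9, Tap1, Psmb8 and Tap2 stand next to each other in the MHC region, between chr17:34181987-34187764 for Psmb9 and chr17:34203527-34216321 for Tap2 (GRCm38), and the exons of Tap1 and Psmb9 overlap over 212 bases. H2-D1, H2-K1 and other class I genes are near copies that can share reads, and FVB/N carries another H2 haplotype than the C57BL/6J reference genome, the effect of which on their counts was not tested.

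B2m was the most abundant of the 42 per length, at 281 CPM per kilobase of exon in transgenic hearts and 495 in non-transgenic hearts, and H2-D1 followed at 105 and 134 in the same groups. B2m had 231, 175, 160.5 and 401 CPM in transgenic A, B, C and E, against 389.6, 622, 281 and 411 CPM in non-transgenic A, B, D and E. Transgenic A, B and C lay below all non-transgenic hearts, and transgenic E lay among them. The log2 fold change was -0.82 (SE 0.31, 95% interval -1.51 to -0.12), the largest in size of the 42, with an edgeR adjusted p of 0.367 (0.0254 before adjustment).

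The class I heavy chains were likewise low in transgenic A, B and C, with less spread among non-transgenic hearts. H2-K1 had 77.0, 64.1, 64.4 and 165 CPM in transgenic A, B, C and E, against 126, 159, 117 and 149 CPM in non-transgenic A, B, D and E, so that transgenic E was the highest of all 8 and the other transgenic hearts were the lowest. Its log2 fold change came to -0.57 (SE 0.29, edgeR adjusted p = 0.533). H2-D1 had 241, 200.1, 199 and 444 CPM in transgenic A, B, C and E, against 334, 325, 319.5 and 404 CPM in non-transgenic A, B, D and E. Again transgenic E was the highest of all 8 and the other transgenic hearts the lowest, and the log2 fold change came to -0.35 (SE 0.24, edgeR adjusted p = 0.692).

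Psmb8 and Tap1 were less abundant per length, at 2.61 and 1.56 CPM per kilobase in transgenic hearts and 4.01 and 1.86 in non-transgenic hearts, but split in a like way. Psmb8 had 7.54, 6.56, 6.07 and 15.2 CPM in transgenic A, B, C and E, against 14.0, 17.1, 10.4 and 12.6 CPM in non-transgenic A, B, D and E (log2 fold change -0.62, SE 0.28, edgeR adjusted p = 0.484). Tap1 had 5.15, 5.86, 4.84 and 18.3 CPM in transgenic A, B, C and E, against 9.47, 12.3, 9.67 and 9.31 CPM in non-transgenic A, B, D and E (log2 fold change -0.26, SE 0.39, edgeR adjusted p = 0.881). For both, transgenic A, B and C lay below every non-transgenic heart, and in Tap1 transgenic E was 3.46 times the mean of these 3. The log2 fold change of Psmb9 was -0.50 (SE 0.31) and that of Tap2 -0.23 (SE 0.17). Psmb10 and Tapbp, encoded apart from that cluster, differed least among the 9, Psmb10 with a log2 fold change of -0.003 (95% interval -0.33 to 0.32) and Tapbp with one of -0.08 (95% interval -0.35 to 0.19).

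**Figure D4:**
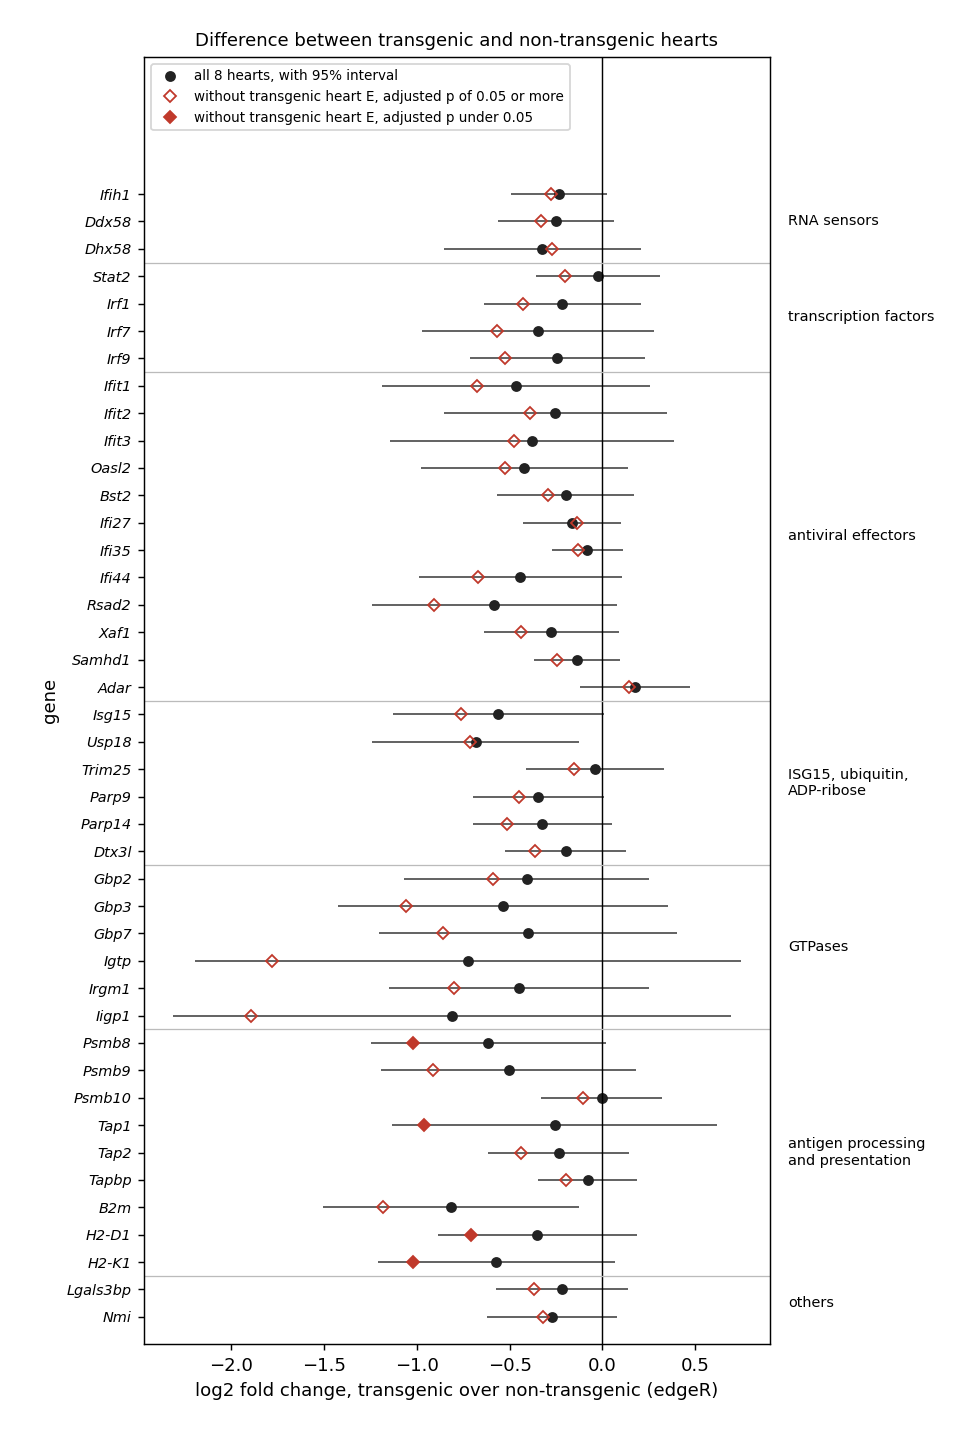
Log2 fold change, transgenic over non-transgenic, of each of the 42 genes with its 95% interval from edgeR, ordered by role. Red diamonds give the log2 fold change without transgenic heart E, filled where its adjusted p is under 0.05, and the line at 0 marks equal levels. Transgenic E was the highest transgenic heart for most genes, so leaving it out lowers the transgenic mean by construction. None of the 42 passed with any other single heart left out. Points from all 8 hearts lie left of 0 for every gene but Adar (and, with scaling by library totals only, Stat2, Trim25 and Psmb10), the intervals of Usp18 and B2m end below 0 before adjustment, and Iigp1 and Igtp have the widest intervals.

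Lgals3bp, a secreted glycoprotein, and Nmi, a partner of STAT proteins, made up the rest. Lgals3bp averaged 25.1 ± 4.56 CPM in transgenic hearts and 29.2 ± 5.61 CPM in non-transgenic hearts (n = 4 each, SD), with a log2 fold change of -0.22 (SE 0.16, edgeR adjusted p = 0.714). Nmi averaged 8.55 ± 0.821 and 10.3 ± 2.38 CPM in transgenic and non-transgenic hearts, with a log2 fold change of -0.27 (SE 0.16, edgeR adjusted p = 0.612).

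Some of the 42 genes passed the threshold once transgenic heart E was left out, whereas none did with any other single heart left out. Without transgenic E, 4 of the 42 were lower in transgenic hearts, against 0.181% of all genes, and 24 of the 42 had an unadjusted p under 0.05, against 8.28% of all genes. The 4 were H2-K1 (log2 fold change -1.02, edgeR adjusted p = 0.00730), Tap1 (-0.96, edgeR adjusted p = 0.0156), Psmb8 (-1.02, edgeR adjusted p = 0.0288) and H2-D1 (-0.71, edgeR adjusted p = 0.0372), which are all antigen presentation genes. The median over the 42 was then -0.50. Since transgenic E was the highest transgenic heart for most of them, leaving it out lowers the transgenic mean by construction. With non-transgenic B left out as well, a setting added after the values were seen, 5 of the 42 were lower against 0.197% of all genes, namely the same 4 and Gbp7 (log2 fold change -0.46, edgeR adjusted p = 0.0370). Over the 17 other settings, the adjusted p of H2-K1 ranged from 0.00730 to 0.889, and over the 16 of them in which Tap1 was tested its adjusted p ranged from 0.0134 to 0.989.

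Other genes of the pathway were read from 4 lists. Of the receptors, kinases and regulators of interferon signalling, 19 of 22 were tested, 0 were higher and 0 lower, and the median log2 fold change was -0.01 with 12 of 19 below 0. Those with the smallest p were Ifngr1, the ligand-binding chain of the interferon gamma receptor (43.1 ± 1.54 CPM in transgenic hearts and 51.6 ± 7.36 CPM in non-transgenic hearts; n = 4 each, SD; log2 fold change -0.26, edgeR adjusted p = 0.416), Il10rb (-0.18, edgeR adjusted p = 0.420) and Pias1 (-0.26, edgeR adjusted p = 0.521). Every transgenic heart lay below every non-transgenic heart for 2 of the 19, Ifngr1 and Il10rb, against 2.8% of all genes. The gap was narrow for Ifngr1, at 44.2 CPM in the highest transgenic and 44.3 CPM in the lowest non-transgenic heart. Transgenic E was the lowest of the hearts for both. Of the genes of nucleic acid sensing 18 of 21 were tested, 0 were higher and 0 lower, and the median was -0.05. The smallest p were those of Tlr3 (-0.32, edgeR adjusted p = 0.430), Traf3 (0.30, edgeR adjusted p = 0.434) and Rnaseh2c (-0.28, edgeR adjusted p = 0.522).

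Of further interferon-stimulated genes 44 of 48 were tested, with 0 higher and 0 lower, 42 of 44 below 0 and a median of -0.31. Ccl5, a chemokine of T cells, had 0.318, 0.420, 0.423 and 0.911 CPM in transgenic A, B, C and E, against 0.748, 1.69, 1.20 and 1.05 CPM in non-transgenic A, B, D and E. Transgenic E was the only transgenic heart within the non-transgenic range, and the log2 fold change came to -1.17 (SE 0.37, edgeR adjusted p = 0.260). Phf11d (-0.43, edgeR adjusted p = 0.347) and Slfn8 (-0.52, edgeR adjusted p = 0.422) followed.

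The list of further antigen presentation genes, of class I and class II, was tested for 21 of 21, with 0 higher and 0 lower, all 21 below 0 and a median of -0.31. Psme1, a subunit of the proteasome activator PA28 that interferon gamma induces, had 93.8, 92.7, 90.9 and 88.9 CPM in transgenic A, B, C and E, against 122, 154, 111 and 121 CPM in non-transgenic A, B, D and E. Every transgenic heart lay below every non-transgenic heart, which held for no other gene of the 21 and for 2.8% of all genes. Transgenic E was the lowest heart for Psme1, and the log2 fold change came to -0.47 (SE 0.11, edgeR adjusted p = 0.0768). Its adjusted p was under the threshold in 5 of the 17 other settings, including DESeq2 (0.00226) and library totals only (0.0457). Its partner Psme2 (-0.31, edgeR adjusted p = 0.441) and the peptide-trimming enzyme Erap1 (-0.26, edgeR adjusted p = 0.551) followed.

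Nlrc5, the transactivator of class I genes, and Cd74, the class II invariant chain, were named after their values were seen. Nlrc5 had 2.07, 2.099, 1.86 and 12.5 CPM in transgenic A, B, C and E, against 3.90, 8.12, 4.49 and 6.11 CPM in non-transgenic A, B, D and E, and transgenic E was 6.21 times the mean of the other transgenic hearts. Cd74 had 38.9, 39.9, 43.0 and 117 CPM in transgenic A, B, C and E, against 78.0, 80.7, 64.4 and 84.3 CPM in non-transgenic A, B, D and E. In both genes transgenic E was above all other hearts and the other transgenic hearts were below all non-transgenic hearts. Without transgenic E, 7 of the 21 were lower in transgenic hearts, against 0.181% of all genes, among them Cd74 (log2 fold change -0.93, edgeR adjusted p = 0.00389) and Nlrc5 (-1.50, edgeR adjusted p = 0.0288). Transgenic E was the highest transgenic heart for 17 of the 21, so leaving it out lowers the transgenic mean and spread by construction. Both genes and the heart left out were picked with the values known, so these values are descriptions and carry no test.

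Markers of the cells that could carry these genes were read beside them. All 10 macrophage markers were tested, 0 were higher and 0 lower, all 10 had a log2 fold change below 0, and their summed CPM was 399, 287, 274 and 304 in transgenic A, B, C and E, against 425, 408, 302 and 281 in non-transgenic A, B, D and E. Transgenic heart E, high in the antigen presentation genes, was second among transgenic hearts in this sum, of which Lyz2 alone, a lysozyme gene, made up the largest part, at 104 to 180.3 CPM in transgenic hearts and 110.2 to 196 CPM in non-transgenic hearts. Gene by gene, non-transgenic B was the highest non-transgenic heart for 7 of the 10, against 36.2% of all genes. Transgenic E and non-transgenic B were both the highest of their groups for 3, Csf1r, Fcgr1 and Ptprc, against 5.72% of all genes. Ptprc, the pan-leukocyte antigen CD45, had 8.08, 9.24, 8.93 and 11.1 CPM in transgenic A, B, C and E, against 11.5, 18.1, 11.8 and 11.99 CPM in non-transgenic A, B, D and E. For Ptprc alone of the 10 every transgenic heart lay below every non-transgenic heart, which held for 2.8% of all genes. Its log2 fold change came to -0.51 (SE 0.17, edgeR adjusted p = 0.283). Of 9 markers of T and NK cells, Cd4 and Gzma were tested, with a summed CPM of 0.817 to 2.75 in transgenic hearts and 1.38 to 3.82 in non-transgenic hearts. The highest heart of each group in this sum was transgenic E and non-transgenic B. Gzma, with as few as 9 counts in a heart, had this order. Cd4 was highest among transgenic hearts in B, at 1.38 CPM against 1.32 CPM in E. For B and plasma cells 1 of 6, for dendritic cells 2 of 6 and for neutrophils 3 of 5 markers were tested, and the other markers of these 4 types, which include Cd3e, Flt3 and Ly6g, were not analysed here. Ighm, of B and plasma cells, was highest in heart A of each group, and so was the sum of the neutrophil markers. That sum was 7.49 CPM in transgenic A and 2.83 CPM in transgenic E. The dendritic cell markers summed highest in transgenic E (20.7 CPM) and non-transgenic D (20.8 CPM), and Zbtb46 made up nearly all of this sum (20.4 and 20.3 CPM). The other tested marker, Cd209a, went the other way. It was lowest of all 8 hearts in transgenic E (0.304 CPM) and highest in transgenic A (1.73 CPM), with as few as 15 counts in a heart. Endothelial markers summed to between 809 and 869 CPM in transgenic hearts and to between 808 and 941 CPM in non-transgenic hearts. The 5 fibroblast markers summed to 844 to 1333 CPM and 947 to 1497 CPM in the same groups, highest in transgenic A and non-transgenic B. Non-transgenic B was the highest non-transgenic heart for 4 of the 5 (36.2% of all genes) but the lowest of all for Col1a1. Transgenic E was the highest transgenic heart for 0 of the 5 (24.9% of all genes). The 6 cardiomyocyte markers summed to between 43182 and 44270 CPM in transgenic hearts and to between 51465 and 58015 CPM in non-transgenic hearts, without overlap, although 0 passed the threshold singly. Myh6 made up the largest part, at 20841 to 21911 CPM in transgenic hearts and 25077 to 29318 CPM in non-transgenic hearts. Singly, 4 of the 6 were without overlap, against 2.8% of all genes. The groups overlapped for Tnni3 and for Ryr2, which had a log2 fold change of -0.005 (edgeR adjusted p = 0.992). The part of any of these cell types in the levels of the interferon and antigen presentation genes was not tested.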

How the data were processed

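Total RNA of 8 hearts had been sequenced from libraries made with a TruSeq kit. The submitters' processing notes name cutadapt 1.15, TopHat2 and build GRCm38 (mm10), and the authors deposited 1 table of raw counts per gene for each heart. How reads were counted, and whether by strand, is not given in the sources used here. Every gene in the deposited tables reached at least 1.003 CPM in its second-highest heart. Groups were taken from the labels. The genes and lists were chosen with earlier results of these data known. Gene spans, exon lengths and exon overlaps come from GENCODE M21.

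Counts were scaled by the trimmed mean of M values, filtered with filterByExpr (13226 of 13227 genes kept, all 42 described here among them) and tested with edgeR 4.0.16 in R 4.3.3 (quasi-likelihood, two-sided, genotype only, all 8 hearts), with Benjamini-Hochberg adjustment over all tested genes and a threshold of 0.05. The SE is the log2 fold change over the square root of F, and intervals are 95%. Log2 CPM used a prior count of 2. The procedure was tested on simulated data. Alternatives were DESeq2 1.42.0, limma 3.58.1 with voom, other scaling and filters, a block on the title letters, and leaving out hearts. Full statistics are given for members past the threshold, otherwise for up to 3 members of each role and genes of each list with the smallest p. Such statistics also appear for some genes outside this rule, among them Adar, Igtp, Iigp1, H2-D1 and Tap1, which were not picked by p. The remaining genes are described by level, log2 fold change or counts. No label says that the letters pair mice, nor that hearts were handled in separate batches. No 2 libraries of a group agreed within sampling noise, the lowest chi-square per degree of freedom being 19.7. Precision rests on 4 hearts per group and, for the rarest genes, on few counts.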

Additional observations from a re-analysis of the deposited data

Results flagged for a closer look

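In each group of 4 hearts, a value was singled out where its gap to the nearest other heart as a share of the group's range exceeded Dixon's 95% critical value, which chance does for about 1 in 20 groups. Of 84 groups for the 42 genes, 18 met it, and in 13 of these the heart was transgenic E as the highest, in 4 non-transgenic B as the highest and in 1 non-transgenic D as the lowest. The genes share hearts, so these are not independent.

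Transgenic heart E stood highest for Irf1 (32.6 CPM, others at most 21.6), Ifi35 (9.98 CPM), Xaf1 (7.57 CPM), Dtx3l (26.5 CPM), Gbp3 (19.0 CPM), Gbp7 (36.7 CPM), Igtp (54.7 CPM), Iigp1 (108 CPM, others at most 26.2), Psmb8 (15.2 CPM), Tap1 (18.3 CPM, others at most 5.86), Tap2 (19.7 CPM), H2-K1 (165 CPM) and Lgals3bp (31.8 CPM). Non-transgenic heart B stood highest for Parp14 (44.8 CPM), Gbp7 (45.9 CPM, others at most 21.0), Iigp1 (164 CPM, others at most 55.6) and Tap1 (12.3 CPM). Non-transgenic heart D stood lowest for Ifi27 (16.9 CPM, others at least 18.7).

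Among the pathway genes named, transgenic E stood highest for Nlrc5 (12.5 CPM, others at most 2.099), Irgm2 (72.3 CPM), Gbp4 (48.1 CPM), Cd74 (117 CPM), H2-Aa (122 CPM) and Cxcl9 (2.81 CPM) and lowest for Il10rb (66.5 CPM). Non-transgenic B stood highest for Gbp4 (53.1 CPM) and Erap1 (83.6 CPM).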

How the results depend on the processing

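Of the 42 genes, 0 passed the threshold under the other scalings, tools, filters and the block that were run, but 4 were lower in transgenic hearts without transgenic E (range 0 to 4 over the single hearts left out). Without transgenic E and non-transgenic B, added after seeing the data, 5 were lower. The median log2 fold change of the 42 was below 0 in all of these, from -0.50 without transgenic E to -0.16 without non-transgenic B. Over all genes, DESeq2 called 249 higher and 159 lower, 106 were lower without non-transgenic D and transgenic A, and the count lower ranged from 9 to 72 over the single hearts left out; the cause was not tested. The replicate block on the title letters gave 0 higher and 0 lower of the 42, 103 genes higher and 21 lower, and a median of -0.27. Same-letter hearts deviated together with a correlation of 0.297 for A, -0.085 for B and 0.360 for E, against -0.438 to 0.448 between hearts of different letters. These values do not settle whether the letters pair mice. The letters were not taken as pairs, because no label says that they are.

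The log2 fold change turned positive, never past the threshold, for these genes. With library totals only it was 0.0491 for Stat2, 0.0150 for Trim25 and 0.0936 for Psmb10. With the replicate block it was 0.00679 for Stat2, 0.00883 for Trim25 and 0.0189 for Tapbp. With limma it was 0.0116 for Psmb10. Without non-transgenic D and transgenic A it was 0.0692 for Stat2 and 0.155 for Trim25, and without transgenic E and non-transgenic B it was 0.0496 for Psmb10. With hearts left out, it ranged from -0.200 to 0.0692 for Stat2, from -0.454 to 0.0630 for Ifit2, from -0.219 to 0.155 for Trim25, from -0.104 to 0.137 for Psmb10, from -1.43 to 0.122 for Irgm2 and from -0.992 to 0.213 for Gbp4. Differences smaller than the intervals given could not be detected with 4 hearts per group.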

Other observations

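Of 3 further interferon targets, named after their values were seen, Cxcl9 and H2-Aa were highest in the same heart of each group as the GTPases, and Mx2 was not. Cxcl9, a chemokine induced by interferon gamma, had 0.749, 0.560, 0.558 and 2.81 CPM in transgenic A, B, C and E, against 1.25, 3.20, 1.12 and 1.56 CPM in non-transgenic A, B, D and E. H2-Aa, a class II chain of professional antigen-presenting cells, had 46.8, 40.5, 41.3 and 122 CPM in the same transgenic hearts, against 103, 168, 62.3 and 88.9 CPM in the non-transgenic hearts (log2 fold change -0.75, SE 0.40, edgeR adjusted p = 0.569). Mx2, a target of type I interferon, had 1.29, 1.04, 1.61 and 1.52 CPM in transgenic A, B, C and E, against 2.18, 1.77, 1.52 and 1.52 CPM in non-transgenic A, B, D and E, and transgenic E was not the highest transgenic heart for it. It had as few as 52 counts in a heart. Of the 12 antiviral effectors, 6 were highest in transgenic E and non-transgenic B of their groups, among them Rsad2, Ifit1 and Ifit2. These 3 chosen genes therefore give no contrast between types of interferon, which was not tested.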
